A study of Rattus norvegicus with 24 samples.

Results

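Solute carrier family 25 is the main family of transporters of the inner mitochondrial membrane. Its members were chosen by name, as every gene whose symbol in the deposited tables starts with Slc25a. This gave 34 genes of the 10797 listed in any of 4 tables, of which 33 were in every table and Slc25a2 was in the 10-week table alone. RNA was sequenced from the myocardium of Sprague-Dawley rats in 24 libraries. Rats with mitral regurgitation (MR) were sampled 2 weeks (n = 4) and 10, 20 or 40 weeks (n = 5 each) after surgery, and Sham rats 2 weeks after it (n = 5). In MR rats the mitral leaflet was perforated through a left thoracotomy; Sham rats had the surgery without the perforation. All Sham libraries are from 2 weeks, so at 10, 20 and 40 weeks MR and the longer time since surgery, with the rats' added age, cannot be told apart. The labels name neither the heart chamber nor the sex of the rats, and do not say that each library is a separate animal, so a p-value measures the spread between these libraries, which may be technical.

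Mitochondrial carriers move metabolites, nucleotides, cofactors and ions across a membrane that is otherwise closed to them. Many work as exchangers, taking in 1 substrate for another. In heart muscle the ADP/ATP carriers export the ATP made by oxidative phosphorylation, the phosphate carrier supplies phosphate for it, the carnitine/acylcarnitine carrier admits fatty acids for oxidation, and the oxoglutarate/malate carrier works in the malate-aspartate shuttle that brings reducing equivalents inside. Other members carry amino acids, coenzyme A, folate, pyrimidine nucleotides, iron or glutathione.

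The deposited values are gene counts that the authors scaled by 1 factor per library, called scaled counts here. They are not divided by gene length, so the level of 1 gene cannot be set against that of another. Listed genes drew between 7.69 and 12.1 M reads in each library, and a member drew between 5 and 116230 reads in a library. Of the markers that define the tissue, 9 of 10 cardiomyocyte genes, 5 of 5 ventricular genes and 5 of 6 atrial genes were listed, and the summed atrial markers ranged from 57.0 to 4000.1 between libraries on the joined scale described with the time course. Carriers that are not listed, Slc25a12 and Slc25a13 among them, were not analysed here. In bulk tissue, fewer cells of a type and less RNA per cell cannot be told apart.

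At 2, 10 and 20 weeks no Slc25a gene passed the test against Sham, and at 40 weeks 16 of 33 did, with 5 higher and 11 lower in MR. The test was limma on log2(value + 1), with a Benjamini-Hochberg adjusted p under 0.05 over all genes, and all 33 members (34 at 10 weeks) passed the filter of a mean of at least 1. At 2 weeks 0 of 33 members passed, beside 0% of all genes, and 2 members had an unadjusted p under 0.05, as did 5.47% of all genes. At 10 weeks the count was 0 of 34, beside 0.168% of all genes, with 6 members under 0.05 unadjusted (12% of all genes). At 20 weeks it was 0 of 33, beside 0.0698% of all genes, with 2 members under 0.05 unadjusted (9.49% of all genes). edgeR and DESeq2 on recovered whole reads also called 0 members at each of these 3 times. The log2 fold changes of the members ran from -0.53 to 0.41 at 2 weeks, from -0.55 to 0.72 at 10 weeks and from -0.34 to 0.50 at 20 weeks. The smallest adjusted p belonged to Slc25a38 at 2 weeks (-0.42, adjusted p = 0.764), Slc25a22 at 10 weeks (0.72, 0.168) and Slc25a34 at 20 weeks (0.50, 0.339). Slc25a2, an ornithine carrier, was 1.10 ± 0.45 in MR at 10 weeks and 0.98 ± 0.48 in Sham (SD, n = 5 each) and did not pass (0.09, limma adjusted p = 0.915).

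At 40 weeks the members called were 48.5%, beside 47.3% of all genes tested; 16.3% of all genes were higher and 30.9% lower. The share of carriers called was thus near that of the transcriptome. The median log2 fold change was -0.18 over the 33 members and -0.15 over all genes. Another scaling moved the all-gene median by more than 0.1: with a median-of-ratios rescaling it was -0.01, and the carriers split into 6 higher and 7 lower. The shares of all genes called under that rescaling are not given here, so this split cannot be set beside 16.3% and 30.9%. The 16 called members kept their sign under every alternative tried.

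**Figure D1:**
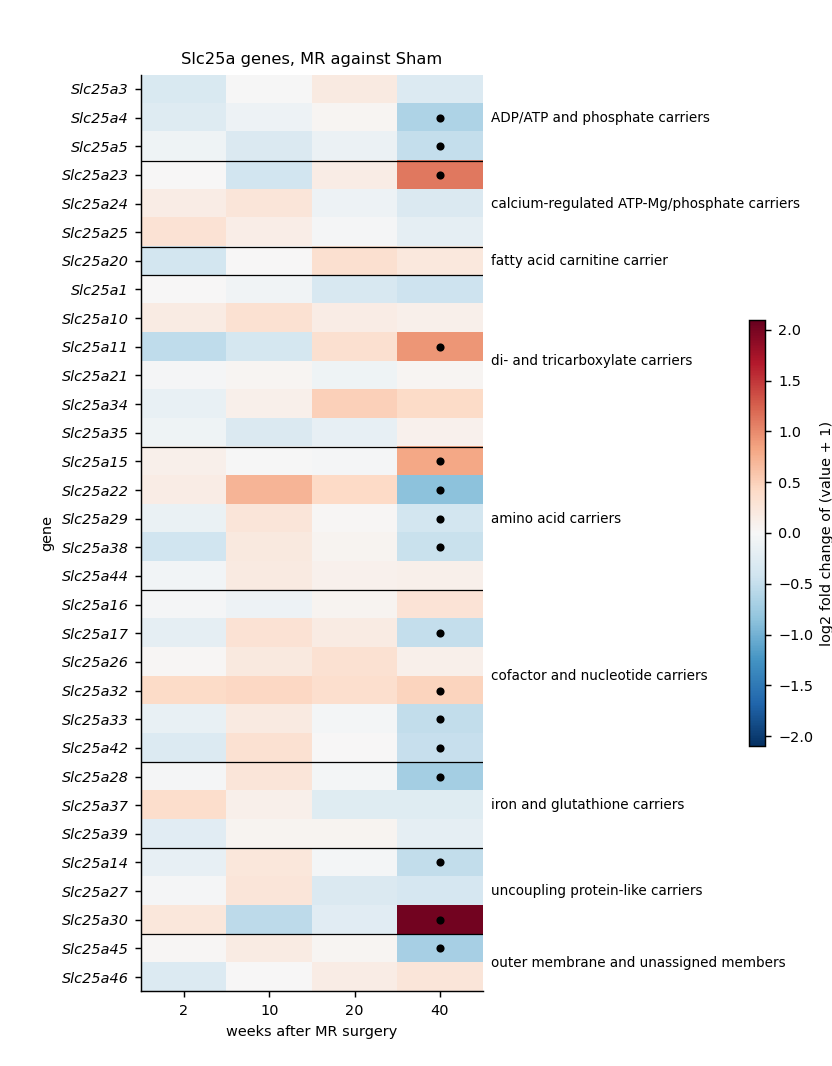
Log2 fold change of (value + 1) for 32 Slc25a genes (rows, grouped by substrate) at 2, 10, 20 and 40 weeks of MR against the same Sham libraries (columns); red is higher and blue lower in MR, and a black dot marks an adjusted p under 0.05. The 16 dots are all in the 40-week column.

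Promoters are shown for 2 carriers that rose and 1 that fell. RefSeq (build GRCr8) gave a promoter for 28 of the 34 members, from 250 bases before to 50 bases after the start, and 8 motifs were searched on both strands. The CCAAT box (CCAAT), a common element of promoters, was in 18 of 28 member promoters, beside 37.6% of the 8453 matched promoters of listed genes and 37.7% of all 27457. It was in 3 of the 3 matched members that rose at 40 weeks and in 6 of the 11 that fell. The 250 bases before the start follow, 5′ to 3′ on the gene's strand, with CCAAT in capitals; the GRCr8 positions are chr9:1985366-1985615 (minus strand) for Slc25a23, chr10:55859061-55859310 (minus strand) for Slc25a11 and chr16:52805271-52805520 (plus strand) for Slc25a4.
Slc25a23: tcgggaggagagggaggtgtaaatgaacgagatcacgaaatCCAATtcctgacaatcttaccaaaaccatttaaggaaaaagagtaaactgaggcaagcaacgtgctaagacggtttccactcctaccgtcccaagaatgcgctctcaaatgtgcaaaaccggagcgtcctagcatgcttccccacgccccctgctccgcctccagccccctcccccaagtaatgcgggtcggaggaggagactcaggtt
Slc25a11: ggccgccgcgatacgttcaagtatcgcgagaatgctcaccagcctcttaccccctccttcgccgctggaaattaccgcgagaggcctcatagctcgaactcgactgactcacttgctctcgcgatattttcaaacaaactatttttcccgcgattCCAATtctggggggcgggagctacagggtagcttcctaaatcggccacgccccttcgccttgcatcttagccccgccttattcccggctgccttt
Slc25a4: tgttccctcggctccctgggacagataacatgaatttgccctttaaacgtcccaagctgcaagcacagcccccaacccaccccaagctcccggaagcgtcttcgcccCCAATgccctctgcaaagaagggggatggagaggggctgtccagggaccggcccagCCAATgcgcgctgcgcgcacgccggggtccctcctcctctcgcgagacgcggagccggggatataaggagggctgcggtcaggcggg
The box begins 209 bases before the start in Slc25a23, 95 bases before it in Slc25a11, and 143 and 87 bases before it in Slc25a4. The ETS motif CCGGAAG was in 6 of 28 member promoters, beside 18% of listed genes, and in Slc25a4 among the 4 of 11 members that fell. The GC box GGGGCGGGG was in 4, beside 20.3%, the E-box CACGTG in 2, beside 9.38%, the CRE TGACGTCA in 2, beside 3.23%, and the TATA motif TATAAA and the YY1 core AAGATGGCG in 1 each, beside 6.75% and 3.89%. The ERR motif TCAAGGTCA was in 0, beside 0.225%. A match is a run of letters in this window and no measured binding.

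Of the 3 carriers of ATP, ADP and phosphate measured, both ADP/ATP carriers fell at 40 weeks and the phosphate carrier did not pass. Slc25a4 encodes the ADP/ATP carrier that is the main form in heart and skeletal muscle (rn6 chromosome 16, 49266903 to 49270699, plus strand); its promoter holds the 2 CCAAT boxes. Its scaled counts were 2672, 3346, 3899, 3323 and 2433 in MR rats at 40 weeks, against 5828, 4794, 3926, 4746 and 5076 in Sham rats. The groups did not overlap, though the highest MR library (3899) lay close to the lowest Sham library (3926). The means were 3135 ± 586 in MR and 4874 ± 684 in Sham (SD, n = 5 each), a log2 fold change of -0.65 ± 0.21 (SE; limma adjusted p = 0.0228). The call was lost without MR 40 weeks replicate 1 (adjusted p = 0.0551), without MR 40 weeks replicate 5 (0.0546) and without Sham replicate 1 (0.0540).

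Slc25a5, the ADP/ATP carrier found in most tissues (chromosome X, 123404570 to 123407638, plus strand), had 62.8, 71.9, 77.5, 65.7 and 61.8 in MR at 40 weeks, against 113, 91.8, 81.4, 94.1 and 104 in Sham. All MR libraries were below all Sham libraries. The log2 fold change was -0.50 ± 0.13 (SE; limma adjusted p = 0.00541), with an adjusted p of 0.0694 in 1 fit of all libraries. RefSeq names 10 pseudogene or like copies of Slc25a5, so how its reads were shared out is uncertain. The phosphate carrier Slc25a3 (chromosome 7, 31816601 to 31824065, minus strand) had 859.5, 969.7, 1127, 1127 and 817 in MR at 40 weeks, against 1552, 1074, 869, 1276 and 1251 in Sham. These groups overlapped, and the log2 fold change of -0.28 ± 0.19 (SE) did not pass (limma adjusted p = 0.233).

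Paralogues were also compared as a ratio within each library, with the pseudocount of 1 added to both values. The log2 ratio of Slc25a4 to Slc25a5 averaged 5.49 ± 0.16 in MR at 40 weeks and 5.64 ± 0.05 in Sham (SD, n = 5 each). The difference of -0.15 did not pass a two-sided exact permutation test (p = 0.0794, adjusted p = 0.159 over 8 tests of 2 ratios at 4 times; the smallest p possible was 0.00794). At 10 weeks the same ratio was 5.84 ± 0.21 in MR and 5.64 ± 0.05 in Sham, with an exact permutation p of 0.0635 (adjusted p = 0.159). None of the 8 tests passed.

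Among the calcium-regulated ATP-Mg/phosphate carriers, which load or unload the matrix adenine nucleotide pool, 1 of 3 measured members rose. Slc25a23 (chromosome 9, 9988057 to 10001963, plus strand) had 7.22, 9.76, 7.26, 13.8 and 10.5 in MR at 40 weeks, against 3.48, 3.49, 2.91, 3.99 and 5.90 in Sham. Each MR library was above each Sham library. The means were 9.70 ± 2.71 in MR and 3.95 ± 1.15 in Sham (SD, n = 5 each), a log2 fold change of 1.10 ± 0.19 (SE; limma adjusted p = 0.000561). Its relatives did not pass: Slc25a24 had a log2 fold change of -0.31 (adjusted p = 0.165) and Slc25a25 of -0.18 (adjusted p = 0.403).

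Of the uncoupling protein-like carriers, Slc25a30 rose, Slc25a14 fell and Slc25a27 did not pass (-0.35, limma adjusted p = 0.157). Slc25a30 encodes kidney mitochondrial carrier protein 1 (chromosome 15, 57813351 to 57834174, minus strand). Its scaled counts were 17.2, 15.5, 11.8, 29.1 and 20.4 in MR at 40 weeks, against 3.92, 2.40, 2.25, 5.54 and 5.21 in Sham. The lowest MR library had more than the highest Sham library. Means were 18.8 ± 6.54 in MR and 3.86 ± 1.53 in Sham (SD, n = 5 each), and the log2 fold change of 2.03 ± 0.24 (SE) was the largest of the family in size (limma adjusted p = 0.000137). Leaving out any 1 of the 10 libraries kept it between 1.86 and 2.17. Slc25a14, also called brain mitochondrial carrier protein 1 (chromosome X, 135471163 to 135509224, plus strand), had 1.54, 1.58, 1.52, 1.64 and 1.54 in MR at 40 weeks, against 2.76, 2.44, 2.50, 3.30 and 2.46 in Sham. The MR libraries were closer together than the Sham libraries and all below them, with a log2 fold change of -0.52 ± 0.13 (SE; limma adjusted p = 0.00472). For genes at such low levels the pseudocount of 1 makes the log2 fold change understate the ratio of means.

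Of the 6 genes listed here as carboxylate carriers 1 rose and 5 did not pass. Slc25a11, the oxoglutarate/malate carrier (chromosome 10, 57265903 to 57268019, minus strand), had 107, 109, 107, 139 and 95.5 in MR at 40 weeks, against 86.8, 32.8, 28.3, 83.8 and 95.2 in Sham. Replicates 2 and 3 of Sham were low, and replicates 1, 4 and 5 were near the MR level. The lowest MR library exceeded the highest Sham library by little. The log2 fold change was 0.92 ± 0.30 (SE; limma adjusted p = 0.0226), and the call was lost without MR 40 weeks replicate 4 (adjusted p = 0.0552) or without Sham replicate 2 (0.0623). In the files its interval overlaps another listed gene on the same strand, so its count may be uncertain. Slc25a20 overlaps Arpp19 on the same strand, which had a log2 fold change of -0.85 at 40 weeks, and Slc25a35 overlaps Rangrf (-0.62) on the opposite strand. The intervals of Arpp19 (37157 kb) and of the gene that overlaps Slc25a11 are among 59 of over 1 Mb. Such intervals may join separate locations, so the overlaps with these genes may not be real. Rangrf (1.37 kb) is not among the 59. The citrate carrier Slc25a1 did not pass (-0.43, adjusted p = 0.0720), nor did Slc25a34 (0.41, adjusted p = 0.0674), the dicarboxylate carrier Slc25a10 (0.10), Slc25a35 (0.09) and the oxodicarboxylate carrier Slc25a21 (0.04).

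Slc25a20, the carnitine/acylcarnitine carrier of fatty acid oxidation (chromosome 8, 117455308 to 117476763, plus strand), had 109, 137, 139, 171 and 125 in MR at 40 weeks, against 143, 95.4, 76.2, 142 and 140.2 in Sham. The groups overlapped over most of their range, and replicates 2 and 3 of Sham were again the low ones. Its log2 fold change of 0.22 ± 0.19 (SE) did not pass (limma adjusted p = 0.360).

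Of the amino acid carriers 1 of 5 rose and 3 fell. The ornithine carrier Slc25a15 of the urea cycle (chromosome 16, 74534070 to 74552668, plus strand) had 3.30, 4.64, 3.53, 6.02 and 4.69 in MR at 40 weeks, against 1.27, 1.88, 1.38, 2.77 and 3.44 in Sham. Replicate 5 of Sham lay within the MR range and the other 4 Sham libraries lay below it. The log2 fold change was 0.82 ± 0.20 (SE; limma adjusted p = 0.00528).

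The glutamate carrier Slc25a22 had 24.6, 24.8, 30.3, 29.0 and 19.7 in MR at 40 weeks, against 55.4, 70.2, 50.8, 36.6 and 32.4 in Sham. The groups did not overlap, and the log2 fold change of -0.87 ± 0.19 (SE) was the largest fall of the family (limma adjusted p = 0.00273). This value is uncertain, because the files give Slc25a22 an interval of 444756 bases (chromosome 1, 213973482 to 214418237, minus strand) that overlaps 19 other listed genes, 9 of them on the same strand. Of the 17 of these that were tested, 0 were higher and 11 lower at 40 weeks, with log2 fold changes of -1.14 to 0.30. Of all genes tested, 16.3% were higher and 30.9% lower. Several of the 17 have long intervals themselves (439 to 472 kb), so some of these overlaps may not be real. Whether reads of those genes entered its count was not tested. The glycine carrier Slc25a38, needed for haem synthesis, fell to 11.6 ± 1.06 in MR, against 16.5 ± 1.03 in Sham (SD, n = 5 each; log2 fold change -0.47, limma adjusted p = 0.00352), with no overlap; in 1 fit of all libraries its adjusted p was 0.0514. Slc25a29, a carrier of basic amino acids, was 11.4 ± 2.14 in MR and 14.99 ± 1.84 in Sham (SD, n = 5 each; -0.38, adjusted p = 0.0430 by limma), and that call was lost in 6 of 10 fits with 1 library left out (replicates 1, 4 and 5 of MR at 40 weeks and replicates 1, 2 and 5 of Sham) and with a median-of-ratios rescaling (adjusted p = 0.197). Slc25a44, which carries branched-chain amino acids, did not pass (0.11).

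Among the carriers of cofactors and nucleotides 1 of 7 rose and 3 fell. Slc25a32, linked to folate and flavin supply (chromosome 7, 77987207 to 78004976, minus strand), had 5.94, 5.50, 5.01, 7.94 and 5.44 in MR at 40 weeks, against 4.03, 4.63, 3.37, 4.37 and 3.64 in Sham. All MR libraries were above all Sham libraries, with a log2 fold change of 0.47 ± 0.14 (SE; limma adjusted p = 0.0137). At the earlier times its log2 fold change was 0.41 at 2 weeks (adjusted p = 0.798), 0.43 at 10 weeks (0.225) and 0.36 at 20 weeks (0.523). Those 3 did not pass, the 4 comparisons share their Sham libraries, and at 2 and 10 weeks the groups did not overlap, as was so for 2.16% and 2.45% of all genes. Slc25a17 of the peroxisomal membrane (-0.50, adjusted p = 0.0163), the pyrimidine nucleotide carrier Slc25a33 (-0.52, 0.0283) and the coenzyme A carrier Slc25a42 (-0.48, 0.0112) fell. With a median-of-ratios rescaling these calls were lost, at adjusted p of 0.0524 for Slc25a17, 0.0703 for Slc25a33 and 0.0607 for Slc25a42. The call of Slc25a33 was also lost without replicate 1, 2 or 5 of MR at 40 weeks or replicate 1 of Sham (limma adjusted p of up to 0.0705). The S-adenosylmethionine carrier Slc25a26 (0.10) and Slc25a16 (0.29) were among those that did not pass.

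Of 3 carriers of iron and glutathione, Slc25a28 fell. Slc25a28 is mitoferrin 2, the iron importer of most non-erythroid cells (chromosome 1, 263420041 to 263431291, minus strand). Its scaled counts were 16.9, 16.1, 20.1, 12.3 and 11.6 in MR at 40 weeks, against 26.1, 30.7, 27.2, 23.3 and 20.7 in Sham. The groups did not overlap, and the log2 fold change was -0.72 ± 0.16 (SE; limma adjusted p = 0.00260). The interval of Kcnip2, on the opposite strand, overlaps it in the files but is also over 1 Mb (2681 kb); Kcnip2 had a log2 fold change of 0.29 (adjusted p = 0.317). Mitoferrin 1, Slc25a37, which serves red cell precursors, did not pass (-0.26, adjusted p = 0.171), and the log2 ratio of Slc25a28 to Slc25a37 was 2.20 ± 0.40 in MR and 2.66 ± 0.19 in Sham (SD, n = 5 each; exact permutation p = 0.0635). The summed level of 5 red blood cell markers ranged from 648 to 6885 in MR at 40 weeks and from 1370.2 to 15155 in Sham, and its part in the mitoferrin values was not tested. Slc25a39, a glutathione carrier with 8 pseudogene or like copies in RefSeq, had -0.18 (adjusted p = 0.331).

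Of the remaining pair 1 fell and 1 did not pass. Slc25a45 (chromosome 1, 221237629 to 221244565, plus strand) had 3.13, 3.40, 3.65, 2.41 and 2.87 in MR at 40 weeks, against 6.07, 5.63, 4.19, 6.28 and 6.14 in Sham. All MR libraries were below all Sham libraries, with a log2 fold change of -0.70 ± 0.14 (SE; limma adjusted p = 0.00141). Slc25a46, an outer membrane protein of mitochondrial dynamics, did not pass (0.25, adjusted p = 0.270).

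**Figure D2:**
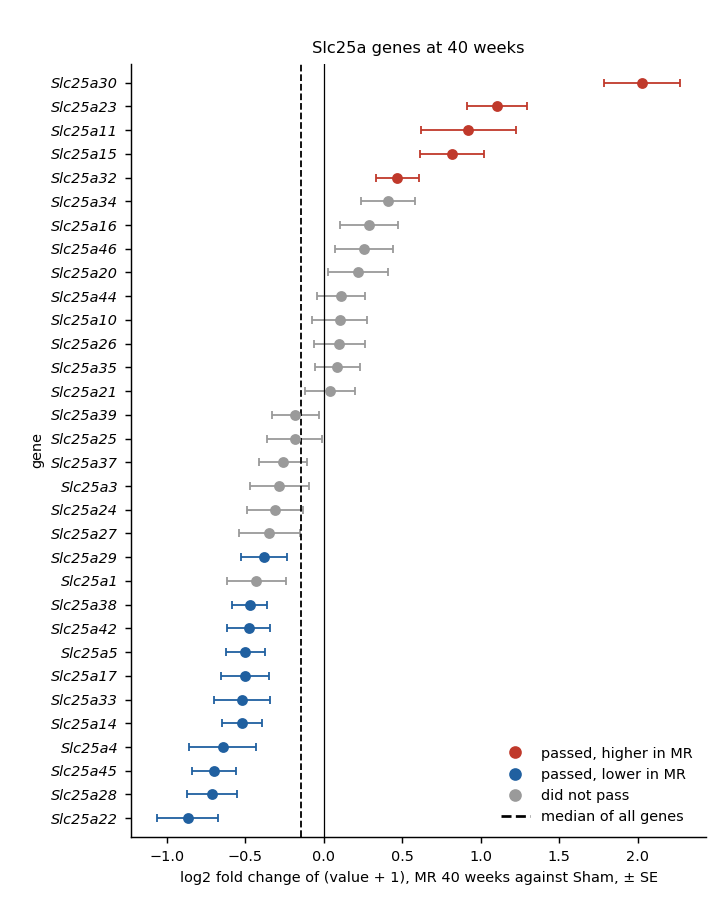
Log2 fold change of (value + 1) with its SE for 32 Slc25a genes in MR at 40 weeks against Sham (5 libraries each), ordered by size; colours mark the limma test at an adjusted p of 0.05 and the dashed line the median of all genes, -0.15. Slc25a30 at 2.03 stands apart at the top, and 11 genes from Slc25a29 to Slc25a22 are called lower.

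Over the family, the groups did not overlap at 40 weeks for 12 of 33 members, 4 higher and 8 lower in MR, beside 29.2% of all genes (9.06% higher, 20.2% lower). Slc25a30, Slc25a23, Slc25a28, Slc25a45, Slc25a22, Slc25a14, Slc25a15 and Slc25a32 kept their calls with any 1 library left out, and so did Slc25a5, Slc25a17, Slc25a38 and Slc25a42.

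The course over time was followed on a scale that joins all 24 libraries, each rescaled by its median ratio to the gene-wise geometric mean. On it, Slc25a30 had 4.38, 5.45, 5.03 and 4.24 in the 2-week MR libraries and 2.08, 1.72, 2.03, 2.62 and 1.96 in the 10-week ones. It had 1.58, 1.73, 1.95, 4.28 and 8.08 in the 20-week MR libraries and 18.8, 17.7, 12.7, 32.6 and 25 in the 40-week ones. Its mean was lowest at 10 weeks and its median at 20 weeks (1.95, against 2.03 at 10 weeks). Its level spread most, relative to its mean, at 20 weeks. MR at 40 weeks was above MR at 20 weeks by 2.42 ± 0.28 on the log2 scale (SE; limma adjusted p = 4.07e-06) and above MR at 2 weeks by 1.89 ± 0.29 (adjusted p = 4.82e-05).

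In all, 10 of 33 members differed between MR at 40 and at 20 weeks, 3 higher and 7 lower, beside 38.8% of all genes (21.2% higher, 17.5% lower). Between 40 and 2 weeks 11 differed, 7 higher and 4 lower, beside 45.6% (24.3% higher, 21.3% lower). With libraries scaled to the same total 17 differed, 7 higher and 10 lower. The shares of all genes just given belong to the median-of-ratios scale. Those under the same total are not given here, so the 17 cannot be set beside them. Between 10 and 2 weeks 0 members passed, beside 1.38% of all genes, with 5 under 0.05 unadjusted, and between 20 and 10 weeks 0 passed, beside 0.01%, with 4 under 0.05 unadjusted. In each of these comparisons 15.2% of all genes were under 0.05 unadjusted. Slc25a38 came closest at 10 against 2 weeks (log2 difference 0.47, limma adjusted p = 0.0753), and passed when MR 2 weeks replicate 1 was left out (0.57, adjusted p = 0.0219). All comparisons between MR times share their libraries with others, and age differs with time.

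Slc25a23 had 7.89, 11.1, 7.83, 15.4 and 12.8 on the joined scale in MR at 40 weeks, against 3.49, 3.75, 4.90, 4.09 and 6.49 in the 20-week libraries and 2.53, 7.01, 3.51 and 4.24 in the 2-week libraries. MR at 40 weeks lay above both, by 1.10 (limma adjusted p = 0.000545) and 1.20 (0.000400) on the log2 scale. Slc25a15 had 3.61, 5.29, 3.81, 6.73 and 5.76 at 40 weeks, against 1.29, 1.64, 1.58, 3.28 and 2.63 in the 20-week libraries and 3.06, 2.36, 2.51 and 1.72 in the 2-week libraries. It too was higher at 40 weeks in every library, by 0.98 over 20 weeks (adjusted p = 0.000623 by limma) and 0.81 over 2 weeks (0.00431).

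For Slc25a11 the values were 117, 124, 115, 155 and 117 in MR at 40 weeks, against 9.24, 76.6, 51.2 and 80.8 at 2 weeks. Replicate 1 at 2 weeks was far below the other 3, and the log2 difference of 1.55 (limma adjusted p = 0.00714) was 0.86 without it (adjusted p = 0.0512). Slc25a20 had 119, 156, 149.6, 192 and 153 at 40 weeks, against 62.4, 107, 104 and 106 at 2 weeks, and was higher at 40 weeks by 0.71 (adjusted p = 0.00350 by limma). The 40-week libraries were above every 2-week library for both carriers. Slc25a34 (0.66, limma adjusted p = 0.00486) and Slc25a46 (0.64, 0.00189) were higher at 40 than at 2 weeks as well.

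Among the members that fell, Slc25a22 had 26.9, 28.3, 32.7, 32.5 and 24.2 on the joined scale in MR at 40 weeks, against 103, 86.8, 55.4, 56.5 and 36.3 in the 20-week libraries and 122, 38.0, 62.4 and 32.2 in the 2-week libraries. The 40-week libraries were all below the 20-week ones but overlapped the 2-week ones. The log2 difference was -1.11 against 20 weeks (limma adjusted p = 0.00338) and -0.92 against 2 weeks (0.0152), where it was -0.55 without MR 2 weeks replicate 1 (adjusted p = 0.112). Slc25a45 had 3.42, 3.87, 3.94, 2.69 and 3.52 at 40 weeks, against 6.25, 4.71, 5.85, 7.52 and 5.04 in the 20-week libraries and 7.25, 5.37, 6.34 and 5.54 in the 2-week libraries. The log2 differences were -0.61 (adjusted p = 0.00106 by limma) and -0.67 (0.000751), with no overlap.

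Slc25a28 had 18.4, 18.3, 21.7, 13.7 and 14.2 in MR at 40 weeks, against 33.3, 26.9, 25.3, 23.4 and 17.4 in the 20-week libraries and 36.0, 23.2, 27.4 and 20.9 in the 2-week libraries. Only the lowest library at each of these earlier times lay within the 40-week range, and the log2 differences were -0.51 (limma adjusted p = 0.0151) and -0.60 (0.00701); the first was lost without MR 20 weeks replicate 1 (0.0578). Slc25a4 had 2919.7, 3816, 4206, 3716 and 2984 at 40 weeks, against 4554, 5001, 5408, 5022 and 4885 at 20 weeks, with no overlap and a log2 difference of -0.51 (adjusted p = 0.0136 by limma). Slc25a17 had 6.78, 6.93, 8.68, 10.9 and 6.88 at 40 weeks, against 18, 12.8, 10.3, 11.2 and 8.60 at 20 weeks; its difference of -0.53 (adjusted p = 0.0298 by limma) was lost in 5 of 10 fits with 1 library left out (replicates 1 and 2 at 20 weeks, 1, 2 and 5 at 40 weeks). Slc25a37 had 3.32, 3.33, 1.99, 2.96 and 2.65 at 40 weeks, against 8.75, 3.84, 5.24 and 2.48 at 2 weeks, and its difference of -0.57 (adjusted p = 0.0449 by limma) was lost in 5 of 9 such fits (replicates 1 and 3 at 2 weeks, 3, 4 and 5 at 40 weeks). Slc25a14 (-0.37, adjusted p = 0.0313) and Slc25a38 (-0.36, 0.0231) were lower at 40 than at 20 weeks in the limma fit. The first call was lost without replicate 2, 3 or 4 at 20 weeks or 1, 2 or 3 at 40 weeks, the second without replicate 4 at 20 weeks or 1 or 4 at 40 weeks.

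**Figure D3:**
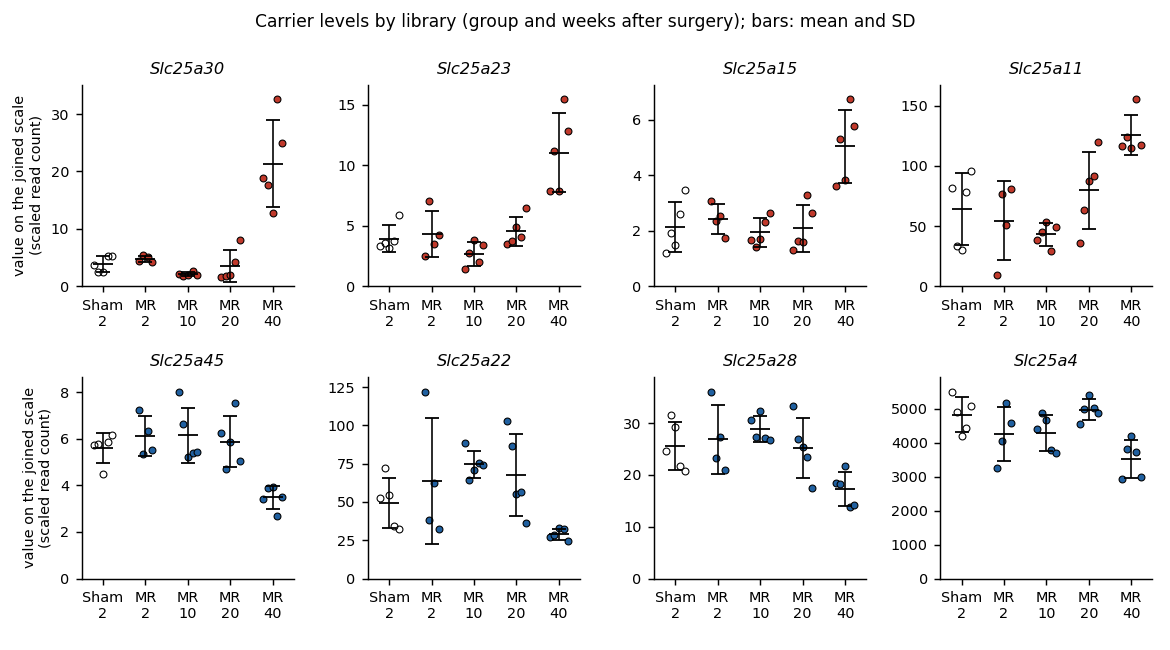
Scaled read counts on the joined scale (vertical axes, linear from 0) of 8 Slc25a genes in each library, by group and weeks after surgery (horizontal axes); bars give the mean and SD, open circles are Sham. The 5 MR libraries at 40 weeks are above all 19 others for Slc25a30, Slc25a23 and Slc25a15 and below all others for Slc25a45, while Slc25a11 in Sham and Slc25a22 in MR at 2 weeks are widely spread.

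Taking all groups on the joined scale, the 5 MR libraries at 40 weeks were above all 19 other libraries for 3 of 33 members. They were below them for 1, against 7.61% above and 3.58% below of all genes. The 3 were Slc25a30 (12.7 to 32.6 at 40 weeks, 1.58 to 8.08 elsewhere), Slc25a23 (7.83 to 15.4 at 40 weeks, 1.44 to 7.01 elsewhere) and Slc25a15 (3.61 to 6.73 at 40 weeks, 1.20 to 3.45 elsewhere). The one below was Slc25a45 (2.69 to 3.94 at 40 weeks, 4.49 to 8.02 elsewhere). The separation of Slc25a15 depends on the scale: as deposited, Sham replicate 5 (3.44) lay above MR 40 weeks replicate 1 (3.30). Of the 5 groups, MR at 40 weeks had the highest mean for 13 members and the lowest for 10, and Sham the highest for 0 and the lowest for 5. Replicate 1 of MR at 2 weeks was the lowest of its 4 libraries for 14 members and the highest for 13, and replicate 4 of MR at 40 weeks was the highest of its 5 for 17. The shares of all genes for these highest and lowest groups and libraries are not given here. The counts thus cannot be read as particular to the carriers.

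The family was set beside the machinery that its members serve. Of 75 measured subunits of oxidative phosphorylation, 2 were higher and 58 lower at 40 weeks, with a median log2 fold change of -0.80, while the 33 carriers had a median of -0.18. The median of the 3 ADP/ATP and phosphate carriers was -0.50. Of all genes tested at 40 weeks, 47.3% were called, 16.3% higher and 30.9% lower. Of 26 measured mitochondrial membrane transporters of other families, 38.5% were called, 7 higher and 3 lower. Among them Abcb10, an exporter needed for haem synthesis, had 15.1 ± 2.80 in MR at 40 weeks and 7.30 ± 1.28 in Sham (SD, n = 5 each; log2 fold change 0.95, adjusted p = 0.000419 by limma), and Letm1, a cation exchanger, 37.5 ± 9.07 in MR and 16.9 ± 4.09 in Sham (1.10, adjusted p = 0.000615). The sodium/calcium exchanger Slc8b1 fell to 4.40 ± 0.77 in MR, against 9.43 ± 2.51 in Sham (-0.93, adjusted p = 0.000763 by limma). Of 4 measured family 25 genes listed under other symbols, Ucp2 rose, with 275 ± 64.5 in MR at 40 weeks and 122 ± 61.2 in Sham (1.26, adjusted p = 0.00250 by limma). Ucp3 of the same list was higher at 20 weeks, with 35.4 ± 8.22 in MR and 12.9 ± 6.08 in Sham (SD, n = 5 each; 1.44, adjusted p = 0.0427 by limma), and did not pass at 40 weeks (0.10, adjusted p = 0.729).

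**Figure D4:**
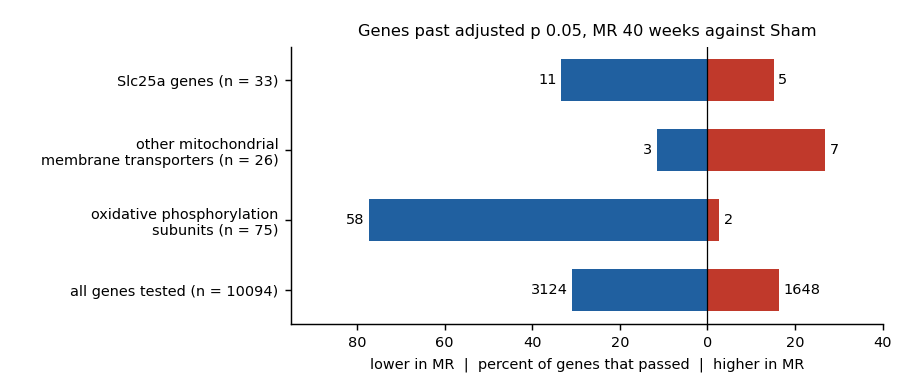
Percent of genes that passed an adjusted p of 0.05 in MR at 40 weeks against Sham, lower to the left and higher to the right of 0, with the number of genes at each bar. Of 33 Slc25a genes 5 are higher and 11 lower, of 75 oxidative phosphorylation subunits 2 are higher and 58 lower, and of all genes 16.3% are higher and 30.9% lower.

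Fold changes at 40 weeks moved with the length of the gene's interval in the files. With all genes cut by span into 4 classes of like size, the median log2 fold change was -0.38 in the shortest class (up to 8.73 kb), -0.20 up to 21.0 kb, -0.07 up to 50.7 kb and 0.08 in the longest. The 10 members of the shortest class had 1 higher and 3 lower, and the 10 of the next 4 higher and 3 lower. The next 10 had 0 higher and 4 lower, and the longest 3 had 0 higher and 1 lower (Slc25a22, whose interval is uncertain). All 5 carriers that rose were thus in the 2 shorter classes, where most genes that passed were lower. Slc25a30 (20.8 kb), Slc25a23 (13.9 kb), Slc25a11 (2.12 kb), Slc25a15 and Slc25a32 were each above 0, while the median of their class was below 0. The part of span in the carriers' values was not tested.

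**Figure D5:**
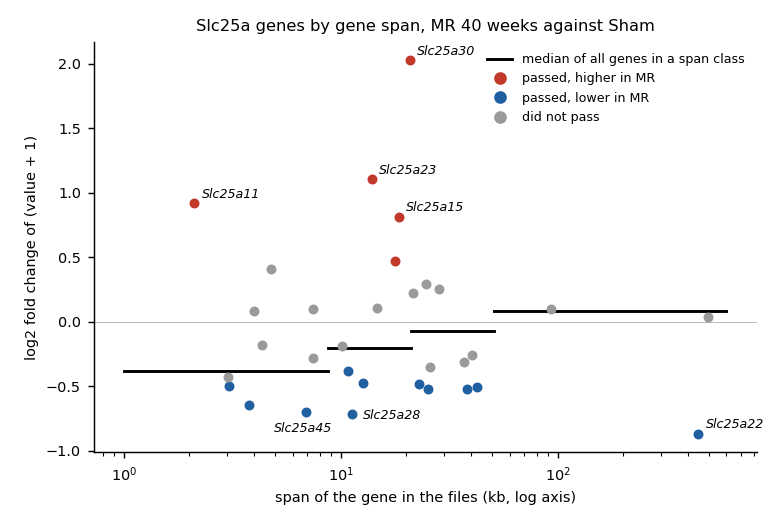
Log2 fold change of (value + 1) in MR at 40 weeks against Sham for 32 Slc25a genes (vertical axis), by the span of the gene in the files (horizontal log axis, kb); black lines are the medians of all genes in each of 4 span classes. The 5 genes that rose have spans of 2.12 to 20.8 kb, in the classes whose medians are -0.38 and -0.20. The interval of Slc25a22, and so its place on the axis, is uncertain.

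Beside these results stand the markers of cell types. At 40 weeks 16.3% of all genes tested were higher and 30.9% lower. Of the endothelial markers 1 of 7 was higher and 4 lower, and of the macrophage markers 0 of 7 were higher and 3 lower. Fibroblast markers had 1 of 8 higher and 3 lower, and cardiomyocyte markers 1 of 9 higher and 3 lower. Ventricular markers had 1 of 5 higher and 2 lower, and atrial markers 0 of 5 higher and 1 lower. Smooth muscle markers had 0 of 4 higher and 0 lower, and skeletal muscle markers 1 of 3 higher and 1 lower. On the joined scale the summed endothelial markers ranged from 515 to 693 in MR at 40 weeks and from 553 to 812 in Sham, the macrophage markers from 54.3 to 117 in MR and 83.0 to 189 in Sham, and the fibroblast markers from 609.98 to 805 in MR and 641 to 1752 in Sham. The summed cardiomyocyte markers ranged from 35925 to 52706 in MR at 40 weeks and from 46760.3 to 57059 in Sham. The summed adipocyte markers did not overlap, at 201.3 to 325 in MR at 40 weeks and 358 to 596 in Sham, with 0 of 3 higher and 2 lower; Adipoq, Plin1 and Cidec are not listed. The summed brown adipocyte markers did not overlap either, at 49.4 to 66.4 in MR and 30.2 to 46.1 in Sham. Of these 3 markers 1 was higher and 0 lower, and Ucp1 is not listed. The one that passed was Ppargc1a (log2 fold change 1.34, limma adjusted p = 0.00184), and 2 did not pass. With 1 of 3 passing, the higher sum cannot be read as more brown adipocytes. By log2 fold change 2 of the 3 were above 0 and 1 below, with a median of 0.22. The part of these markers in the results was not tested.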

How the data were processed

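RNA of the myocardium was measured in 24 libraries grouped by the labels. Per the submitters' processing notes, Partek and the build rn6 were used. Not given in the sources used here: aligner, annotation, counting rule, strand and scaling. The deposited values are signal: gene counts divided by 1 factor per library, 4 tables each holding 1 MR time and the same Sham libraries. Undoing the factor gave whole reads (within 0.1) for 95.4% to 97.5% of values. Starts are as deposited.

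Genes with a mean of at least 1 were tested per table as log2(value + 1) with limma 3.58.1 (R 4.3.3), two-sided, with a mean trend. MR times were compared in 1 fit of all 24 libraries on 9989 genes after median-of-ratios rescaling. edgeR 4.0.16 and DESeq2 1.42.0 ran on recovered reads. The code was tested on simulated data. The members and lists were chosen with earlier results of these data known. Of 5 planned paralogue ratios, 2 could be formed. Every member may be named; values per library are given for Slc25a3, Slc25a4, Slc25a5, Slc25a11 and Slc25a20 and, per comparison, the 5 largest called rises and falls (Slc25a12 was also fixed and is not analysed here). Listed genes outside the family are named only if called, at most 4 per list, or where their interval overlaps that of a member. Values of 1 member and of 2 other genes are not reported here, and the figures of single genes leave that member out; counts over the family keep it. Alternatives were another pseudocount, filter, scaling, tool or fit, array weights, 1 library left out and, added after the data were seen, a replicate block at 2 weeks.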

Additional observations from a re-analysis of the deposited data

Results flagged for a closer look

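Of 105 groups of 4 or 5 libraries checked on the joined scale (21 members), 10 held a library far from the others of its group. For independent groups chance gives about 1 in 20. The members share the same libraries, so the 10 cannot be set against that rate. Replicate 1 of MR at 2 weeks was such a library for Slc25a20 (62.4, the others 104 to 107), Slc25a34 (47.13, the others 75.1 to 78.7), Slc25a29 (22.96, the others 11.7 to 12.3) and Slc25a38 (16.05, the others 11.6 to 12.2). In MR at 20 weeks it was replicate 1 for Slc25a20 (113.8, the others 149 to 161). In MR at 40 weeks it was replicate 4 for Slc25a11 (155.4, the others 115 to 124) and replicate 1 for Slc25a29 (8.709, the others 12.9 to 14.6). In Sham it was replicate 5 for Slc25a23 (5.91, the others 3.12 to 3.73), replicate 1 for Slc25a33 (12.2, the others 6.89 to 7.11) and replicate 3 for Slc25a45 (4.489, the others 5.74 to 6.16).

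MR libraries of different times differed for the members whose limma contrast between times passed. Between 40 and 20 weeks the log2 differences were 2.424 for Slc25a30, 1.10 for Slc25a23, 0.9823 for Slc25a15, -1.114 for Slc25a22, -0.6089 for Slc25a45, -0.5284 for Slc25a17, -0.5132 for Slc25a28, -0.5078 for Slc25a4, -0.366 for Slc25a14 and -0.3649 for Slc25a38. Between 40 and 2 weeks they were 1.892 for Slc25a30, 1.552 for Slc25a11, 1.199 for Slc25a23, 0.8084 for Slc25a15, 0.7088 for Slc25a20, 0.6608 for Slc25a34, 0.6427 for Slc25a46, -0.9228 for Slc25a22, -0.6666 for Slc25a45, -0.6003 for Slc25a28 and -0.5685 for Slc25a37. With Sham at 2 weeks alone, the later times differ in age as well.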

How the results depend on the processing

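Counts at 2, 10 and 20 weeks against Sham stayed at 0 members under the alternatives tried. At 40 weeks the 16 members called became 9 with a mean of at least 10, where 18 members were tested, and 13 to 17 with 1 library left out; median-of-ratios rescaling and edgeR gave 13 each, DESeq2 14 and 1 fit of all libraries 12 (7 higher, 5 lower). Between 10 and 2 weeks the 0 members became 1 in a fit of those times only (Slc25a30) and 0 to 2 with 1 library left out: Slc25a38 and Slc25a5 without MR 2 weeks replicate 1, and Slc25a38 without MR 10 weeks replicate 4 or 5. Between 40 and 20 weeks the 10 became 5 with a mean of at least 10 (19 tested) and 7 to 11 with 1 library left out. Between 40 and 2 weeks the 11 became 6 with a mean of at least 10, 9 to 13 with 1 library left out, and 17 (7 higher, 10 lower) when libraries were scaled to the same total, which moved the median of all genes to -0.15, against -0.01. The shares of all genes called under these alternatives are not given here, so the counts cannot be set beside them. Fewer genes were tested at the higher filter, and the other causes were not tested. The paralogue ratios had 0 of 8 past the threshold with no pseudocount or with 1 library left out. Of 611 values under an alternative, 554 kept direction and side of the threshold, 57 lost the call and 0 reversed; they cover the members called in a comparison, and Slc25a3 and Slc25a20 at 40 weeks, so calls gained by other members are not among them. At 2 weeks 4 title numbers occur in both groups; with that number as a block, a fit added after the data were seen, 0 members passed. Same-numbered libraries correlated at -0.28 to 0.24 in their deviations from the group means, and nothing in the labels ties the numbers into pairs. Depth limits the low genes most: Slc25a15 had 23 to 150 reads in a library.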
